A study of Mus musculus with 800 samples.

Results

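Among labelled retinal cells of Sert-Cre mice, those in which the serotonin transporter gene Slc6a4 was detected were compared with those in which it was not. Of 800 single-cell libraries, 400 carry the label Tomato+, and 81.8% of these had at least 1000 detected genes and at most 20% of their counts in mitochondrially encoded genes. The sides were chosen by the Slc6a4 count of each cell. Side A holds the kept Tomato+ cells with at least 5 Slc6a4 counts (36.1% of them), and side B those with 0 counts (48.3%). In the order of the numbers 1 to 10 in the cell titles, the only subdivision of the Tomato+ cells that the titles give, side A had 13, 9, 17, 12, 15, 11, 13, 11, 9 and 8 cells. Side B had 17, 18, 14, 15, 15, 17, 18, 12, 19 and 13 cells. The 44 cells with 1 to 4 counts were left out, as were 7 cells with at least 100 counts of the globin gene Hbb-y. Sides A and B together make up 84.4% of the kept Tomato+ cells.

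All cells came from retinas of C57BL/6 embryos at stage E15.5. Retinas were pooled before dissociation with papain and sorting by flow cytometry, and no animal is named for any cell. Both sides share the same labelled genotype, so the comparison is between cells of 1 labelled pool and not between treatments. The sorting gate and the allele that carries the Tomato reporter are not given in the sources used here. A reference set, called the Tomato- set here, holds cells labelled Tomato- with at least 5 counts of at least 6 of 12 markers of retinal ganglion cells (RGCs). It makes up 61.6% of the kept Tomato- cells, which are 90.5% of 400.

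RGCs send the axons of the optic nerve. At the optic chiasm of the mouse most of these axons cross the midline, while those of a ventrotemporal group turn back to the same side of the brain. In that uncrossed group the transcription factor Zic2 acts upstream of Ephb1, a receptor for the midline repellent ephrin-B2, and of Slc6a4, whose product takes serotonin up into the cell although the cell does not make it. Crossed RGCs are known for Isl2, Pou4f1, Nrcam, Plxna1 and the receptor Nrp1. Sert, for which the Cre line is named, is another name of Slc6a4. A Cre-dependent reporter stays on once it has recombined, so the label does not follow the present level of the driver.

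Because Slc6a4 chose the sides, its values are given only as a description. Side A cells had a median of 47.5 Slc6a4 counts with quartiles of 24 and 100.75. The level of a gene is its summed count divided by the summed total of the cells, times 1000000 (CPM), and for Slc6a4 it was 247.8 CPM on side A. Over the 10 title numbers, side A ranged from 162.01 to 375.3 CPM with a median of 238.3. Just outside the threshold lay 25, 11, 5 and 3 cells with 1, 2, 3 and 4 counts. Just inside it lay 6, 3 and 3 cells with 5, 6 and 7 counts. The gene lies on chromosome 11 from 76998603 to 77032340 on the plus strand (GRCm38, GENCODE vM21) and overlaps an antisense gene, Gm12343.

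The upstream sequence of Slc6a4 is shown with those of Ephb1 and Gal, since these were the only genes tested whose title numbers did not overlap between the sides. Each window is the 250 bases before the start site, 5′ to 3′ on the strand of the gene, from RefSeq (GRCm38.p6). Capitals mark AACAAAG, a core of Sox binding sites, searched on both strands together with the Zic-type CCTGCTG. The Sox letters were chosen after the Slc6a4 window had been seen.
Slc6a4, chr11:76998347-76998596, plus strand: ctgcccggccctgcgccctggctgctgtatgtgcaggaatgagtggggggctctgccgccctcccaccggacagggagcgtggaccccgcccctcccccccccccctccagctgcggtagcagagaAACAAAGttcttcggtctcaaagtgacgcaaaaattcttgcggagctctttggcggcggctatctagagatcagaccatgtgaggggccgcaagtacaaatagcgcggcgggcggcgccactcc
Ephb1, chr9:102354694-102354943, minus strand: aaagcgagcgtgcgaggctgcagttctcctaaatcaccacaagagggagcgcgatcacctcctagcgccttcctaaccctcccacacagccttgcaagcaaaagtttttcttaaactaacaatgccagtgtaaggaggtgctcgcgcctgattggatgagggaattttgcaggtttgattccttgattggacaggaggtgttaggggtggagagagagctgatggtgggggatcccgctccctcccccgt
Gal, chr19:3414545-3414794, minus strand: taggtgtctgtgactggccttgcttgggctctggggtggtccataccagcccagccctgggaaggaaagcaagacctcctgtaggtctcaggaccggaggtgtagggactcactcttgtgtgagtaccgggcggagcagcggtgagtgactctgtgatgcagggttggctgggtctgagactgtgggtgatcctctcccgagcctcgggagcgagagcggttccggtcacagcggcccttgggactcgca
AACAAAG was found at 1 place in the Slc6a4 window and in 0 of the other windows shown. Of 32851 RefSeq windows of this length, 5.03% hold it. CCTGCTG was in 0 of these 3 windows and not in that of Zic5, against 8.44% of all windows. These matches describe letters only.

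Both sides had the markers of RGCs. At least 6 of the 12 RGC markers were found in 100% of side A cells and in all side B cells but 3. Of the 11 markers past the filter on low counts, 0 differed 2-fold, against 0.9% of all genes tested. Their median log2 ratio was 0.08. Pou4f2, a transcription factor of RGC differentiation, had 137.02 CPM on side A and 104.9 CPM on side B (log2 ratio 0.36). Sncg, which encodes gamma-synuclein, had 6470 and 6971 CPM (-0.11), and the growth cone gene Gap43 3799 and 3884 CPM (-0.03). The 17 axon growth and cytoskeleton genes past the filter had a median of 0.00, and 0 of them differed 2-fold. In the Tomato- set, Sncg had 3675 and Gap43 2498 CPM.

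Depth differed little in the middle of the distributions and more at the low end. The median total was 290092 counts per cell on side A and 272082 on side B, and the lower quartiles were 247116 and 149805. The median number of detected genes was 4604 against 4569, and the median mitochondrial share 5.51% against 5.46%. Title numbers 8 and 10 stood apart on side B, with mitochondrial medians of 8.15% and 7.64% and, for title number 8, a median total of 101030. A count of 0 is more likely in a shallow cell. Shares and ratios of the main genes were therefore also computed with every cell thinned to 112475 counts, which left out 2 and 26 cells, and with cells of the sides paired by total to within 10%, which left out 11 and 51.

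Most of the transcriptome was alike on the sides. Ratios are log2 of side A over side B with 10 CPM added to each, and a gene entered the comparison if at least 10% of the cells of both sides together had 5 or more of its counts. Of 7888 such genes, 37 (0.469%) were at least 2-fold higher and 34 (0.431%) at least 2-fold lower on side A, together 71 genes or 0.9%. The median log2 ratio over all of them was -0.01. Throughout, 2-fold refers to ratios with 10 CPM added, so genes of low level can differ more in CPM itself. The filter pools the sides, so a gene can pass through 1 side alone. Among genes named below, Chrdl1 and Zic1 did so through side A, and Fxyd7 and Gabra3 through side B. Of the genes 2-fold higher, 30 were higher in at least 8 of 10 title numbers (0.38% of genes tested), and 24 of those 2-fold lower were lower in at least 8 (0.304%). All cells come from 1 sample, so no test was made. The spread is the standard deviation (SD) of the log2 ratio over the 10 title numbers. These counts depend on the 10 CPM added. With 1 CPM, 1.80% and 2.35% of genes tested were 2-fold higher and lower. With 50 CPM the numbers were 4, namely Gal, Crabp1, Zic5 and Ephb1, and 0.

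**Figure D1:**
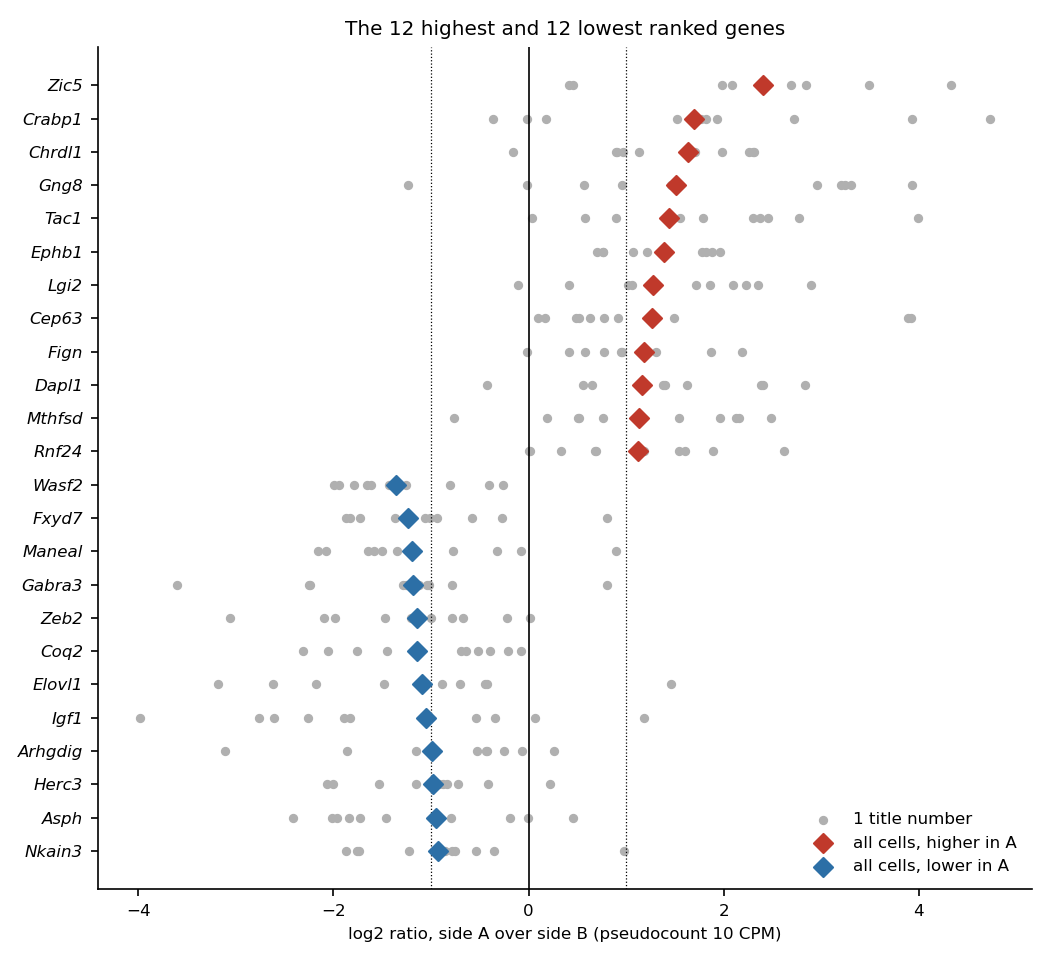
Log2 ratio of side A over side B (x axis, pseudocount 10 CPM) for the 12 highest and 12 lowest genes by the naming rule (rows). Diamonds give all cells, grey points single title numbers, and dotted lines a 2-fold difference. Zic5 stood highest at 2.40 and Wasf2 lowest at -1.35, and the single title numbers of Ephb1 all lay above 0.

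Ephb1 was the clearest difference in a guidance receptor. On side A its level in single title numbers ran from 165.9 to 378.8 CPM with a median of 204.9, and on side B from 41.8 to 157.1 CPM with a median of 72.5. The lowest title number of side A was thus above the highest of side B, as for 2 of the 7888 genes (0.0254%), the other being Gal. With all cells summed, Ephb1 stood at 221.9 CPM on side A (exact 95% Poisson interval 217.03 to 226.8) and at 78.8 CPM on side B (76.02 to 81.6). The level on side A was thus 2.82 times that on side B (log2 ratio 1.39, SD 0.50), and higher in 10 of 10 title numbers. These intervals, and the Clopper-Pearson intervals of shares below, are at 95% and cover counting error only. At least 5 Ephb1 counts were found in 75.4% of side A cells (66.6 to 82.9) and 41.8% of side B cells (33.99 to 49.9). After thinning the shares were 68.97% and 40.9%, and in cells paired by total 75.7% and 41.1%. In the Tomato- set the share was 10.8% (7.02 to 15.6) and the level 22.7 CPM. Side B thus lay between side A and the Tomato- set. Ephb1 lies on chromosome 9 from 101922128 to 102354693 on the minus strand. The annotation places 3 other genes within it, 2 of them on the opposite strand, and whether the authors counted by strand is not given in the sources used here.

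Of the other Eph receptors, 0 differed 2-fold, so that Ephb1 was the single 2-fold difference among 6 receptors past the filter. Epha5, a receptor for ephrin-A ligands in retinotopic mapping, had 111.9 to 292.6 CPM in the title numbers of side A and 217.5 to 399.4 CPM in those of side B (medians 241.6 and 320.4). These ranges overlap, yet Epha5 was lower on side A in 10 of 10 title numbers (227.8 against 311.6 CPM, log2 ratio -0.44, SD 0.35). Epha6 was at -0.50 (higher in 3 of 10), Epha7 at 0.25, Ephb2 at 0.14 and Ephb3 at -0.13. Epha1, Epha2 and Ephb4 had 0 counts on both sides. Of the ephrins, the ligands of these receptors, 4 passed the filter and 0 differed 2-fold with 10 CPM added. Of all genes tested 0.9% did. Efna5 was at -0.84 (33.3 against 67.7 CPM), Efnb3 at 0.36 and Efnb2 at 0.31.

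Zic5 and Zic1, which encode zinc finger transcription factors, were higher on side A. Zic5 had the largest log2 ratio of all genes tested. Its title numbers ran from 20.2 to 235.5 CPM on side A (median 101.6) and from 0 to 41.7 CPM on side B (median 13.5). The ranges overlap, and Zic5 was higher on side A within each of the 10 title numbers. With all cells summed, Zic5 stood at 122.1 CPM on side A (118.5 to 125.8) and 15.05 CPM on side B (13.9 to 16.3). Side A was 8.11 times side B (log2 ratio 2.40, SD 1.21). The share of cells with at least 5 Zic5 counts was 51.7% (42.3 to 60.99) against 12.0% (7.40 to 18.1), and 43.1% against 12.1% after thinning and 52.3% against 15.9% in paired cells. The Tomato- set, with 26.4 CPM and 14.3% of cells, was near side B. Zic5 lies on chromosome 14 from 122456795 to 122465677 on the minus strand, and Zic2 begins beyond its start on the plus strand at 122475435.

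Zic1 had 26.9 against 8.30 CPM (log2 ratio 1.01, SD 0.56) and was higher in 10 of 10 title numbers, with 26.3% and 8.23% of cells at 5 or more counts. Its ratio was under 2-fold when any of 4 title numbers was left out, down to 0.93 without title number 1, and it was 0.97 in cells paired by total. Zic1 overlaps Zic4 on the opposite strand. Zic2 itself was barely detected and did not pass the filter. It had 3.88 CPM on side A and 1.12 CPM on side B, and at least 5 counts in 7 side A cells (5.93%, 2.42 to 11.8) and 6 side B cells (3.80%, 1.41 to 8.08). At least 1 Zic2 count was found in 19.5% (12.8 to 27.8) and 6.33% (3.08 to 11.3) of cells, and after thinning in 16.4% and 6.06%. The Tomato- set had 2.05 CPM and 5.38% of cells with at least 1 count.

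The rest of the ipsilateral list did not follow Ephb1 and the Zic genes. Of its 9 members 6 passed the filter, of which 3 were at least 2-fold higher (0.469% of all genes tested) and 1 at least 2-fold lower (0.431%), with a median of 0.58 against -0.01 over all genes. Of the 3, Zic1 passed the filter only through side A, where it was higher, so the count and median hold a gene admitted by that side. Its ratio of 1.01 was 0.97 in cells paired by total. Igf1, a growth factor gene, was the lower one. Its title numbers ran from 11.1 to 881.9 CPM on side A (median 127.5) and from 240.3 to 675.7 CPM on side B (median 353.9). It was lower on side A in 8 of 10, and the highest single value of all was on side A. Over all cells Igf1 had 184.3 CPM (179.8 to 188.8) against 392.5 CPM (386.3 to 398.7), a log2 ratio of -1.05 that is smaller than its SD of 1.55. The ratio was -1.50 without title number 9 and under 2-fold when any of 6 other title numbers was left out, with -0.95 after thinning and -0.84 in paired cells. At least 5 Igf1 counts were found in 36.4% (27.8 to 45.8) of side A and 53.2% (45.1 to 61.1) of side B cells. Both shares were above the 13.5% (9.26 to 18.6) of the Tomato- set. Fgf12 was at -0.32 and Syt13 at 0.15. Boc, which encodes a Hedgehog co-receptor, had 0.394 and 0.0764 CPM, and the cyclin gene Ccnd2 1.01 and 0.356 CPM, so neither could be compared.

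Of the 10 genes of the crossed projection 9 passed the filter, and 0 of these differed 2-fold, with a median of -0.05. Of all genes tested 0.9% differed 2-fold, so a count of 0 in this list is near that share. Nrp1 was higher on side A and Isl2, below the filter, was lower. Pou4f1, a POU-domain factor, ran from 43.7 to 162.01 CPM over the title numbers of side A and from 7.69 to 300.8 CPM over those of side B, with medians of 115.98 and 110.9. Its log2 ratio was -0.22 (SD 1.39), and 56.8% (47.3 to 65.9) and 47.5% (39.5 to 55.6) of cells had at least 5 counts. Nrp1, which encodes a semaphorin and VEGF receptor, had 269.9 against 168.1 CPM (0.65, SD 0.86) and was higher on side A in 8 of 10 title numbers. Nrcam, a cell adhesion gene, was at -0.11, Plxna1, a plexin, at -0.19, Igfbp5 at -0.05, and the SoxC genes Sox4, Sox11 and Sox12 at -0.09, 0.11 and 0.01. Isl2, a LIM homeodomain factor that did not pass the filter, had 13.3 against 44.3 CPM (log2 ratio -1.22, SD 1.66) and was lower on side A in 7 of 10 title numbers and higher in 2, with 7.63% (3.55 to 13.99) and 11.4% (6.89 to 17.4) of cells at 5 or more counts. Of its side A counts 88.8% came from 5 cells.

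**Figure D2:**
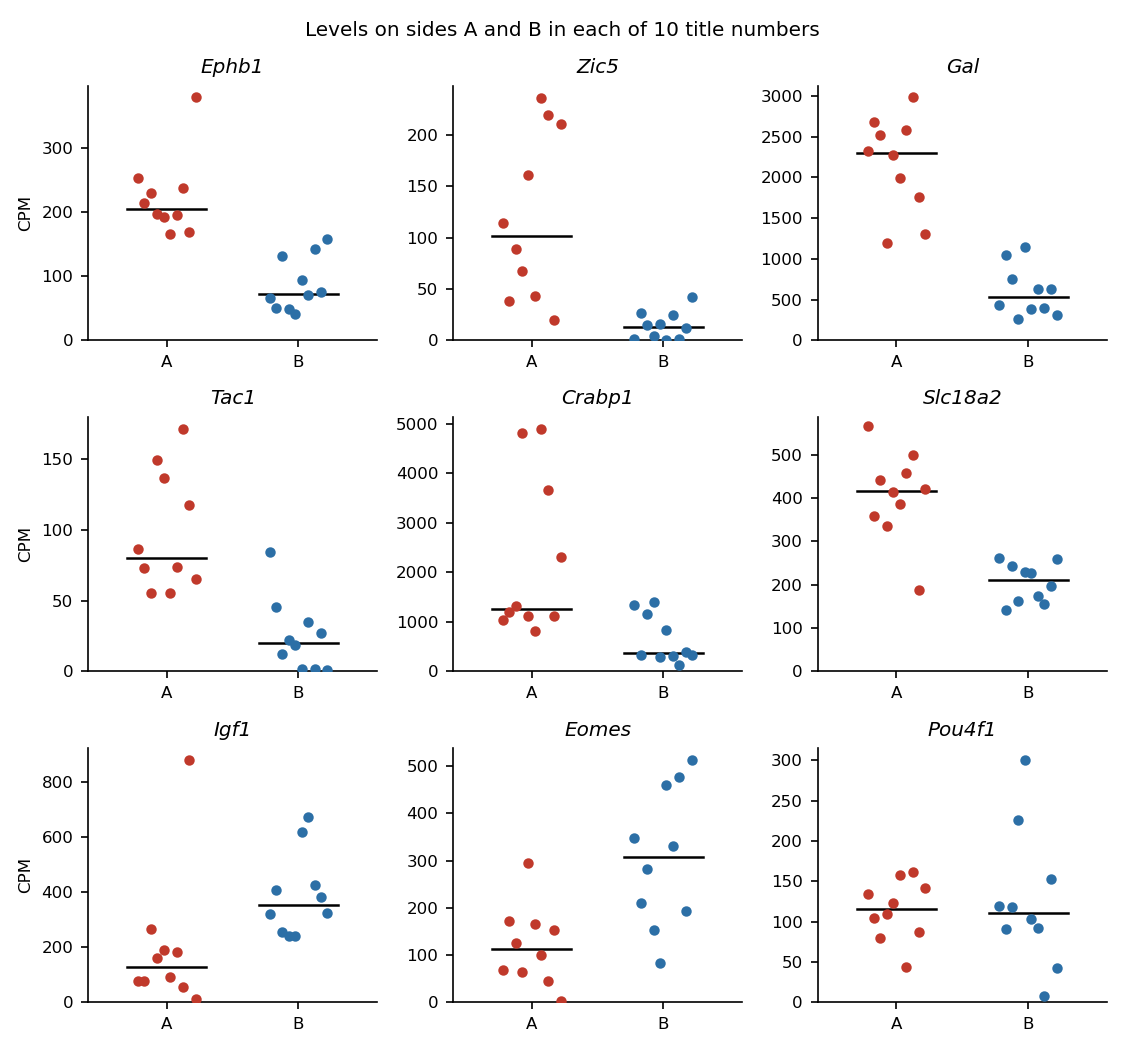
Levels in CPM (y axes) of 9 genes on side A (red) and side B (blue), 1 point for each of 10 title numbers and a line at their median. Ephb1 and Gal do not overlap between the sides, while the ranges of Zic5, Tac1, Crabp1, Slc18a2, Igf1, Eomes and Pou4f1 do.

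Neuropeptide genes were the group with the highest median. Of 17 members measured 5 passed the filter, all 5 had log2 ratios above 0, and 2 were at least 2-fold higher (0.469% of all genes tested), with a median of 1.00. That median is the ratio of Sst, and it was 0.61 without title number 8 and 1.42 without title number 2. Gal, which encodes galanin, had 1196 to 2985 CPM in the title numbers of side A (median 2302) and 260.3 to 1142 CPM in those of side B (median 533.8). The ranges do not overlap, though by a small margin. With all cells summed, Gal stood at 2246 CPM on side A (2230.5 to 2262) and 650.1 CPM on side B (642.1 to 658.1), so that side A was 3.46 times side B (log2 ratio 1.77, SD 0.56). The difference lay more in the level than in detection. At least 1 Gal count was found in 95.8% and 93.04% of cells, and at least 5 counts in 89.8% (82.9 to 94.6) and 72.8% (65.1 to 79.6). In cells paired by total the latter shares were 88.8% and 78.5%, with a log2 ratio of 1.64, and after thinning 88.8% and 72.7%, with 1.80. In the Tomato- set Gal had 788.8 CPM, a level close to side B. The share of its cells with at least 5 counts was 56.5% (49.7 to 63.1), lower than on side B. Gal lies on chromosome 19 from 3409915 to 3414544 on the minus strand.

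Tac1, the precursor gene of substance P, had 55.2 to 171.2 CPM in the title numbers of side A (median 80.1) and 1.05 to 84.4 CPM in those of side B (median 20.3). It was higher on side A in 10 of 10, with overlap through the highest side B title number. Over all cells it had 98.03 CPM (94.8 to 101.3) against 29.7 CPM (28.1 to 31.5), a log2 ratio of 1.44 (SD 1.16). At least 5 counts were found in 40.7% (31.7 to 50.1), 17.7% (12.1 to 24.6) and, in the Tomato- set, 4.04% (1.86 to 7.52) of cells. The shares of the sides were 36.2% and 15.2% after thinning and 39.3% and 21.5% in paired cells. Sst, which encodes somatostatin, was higher in 8 of 10 title numbers with 161.2 against 75.7 CPM, but its log2 ratio of just under 1.00 is far below its SD of 2.38. It was 0.61 without title number 8. Adcyap1 was at 0.45 and Pnoc at 0.04. Pcsk2, which encodes a convertase that cuts neuropeptide precursors, had 90.5 against 37.96 CPM (1.07, SD 0.88) and at least 5 counts in 65.3% against 32.9% of cells. Without title number 5 it was at 0.86. Vip, Trh, Crh, Nts and Cck had 0 counts on both sides.

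Of the other serotonin genes, only Slc18a2 differed 2-fold among the 4 of 22 past the filter (0.9% of all genes tested did). Slc18a2 encodes the transporter that loads serotonin and other monoamines into vesicles. It had 188.9 to 566.1 CPM in the title numbers of side A (median 416.6) and 142.2 to 262.7 CPM in those of side B (median 211.5), and 9 of 10 title numbers were higher on side A. Over all cells it had 420.3 CPM (413.6 to 427.1) against 203.3 CPM (198.8 to 207.8), a log2 ratio of 1.01 (SD 0.46) that lies at the 2-fold limit. It was between 0.96 and 1.06 when single title numbers were left out. At least 5 counts were found in 94.1% (88.2 to 97.6) and 75.9% (68.5 to 82.4) of cells and in 54.7% (47.9 to 61.4) of the Tomato- set. The shares of the sides were 87.9% and 73.5% after thinning and 93.5% and 78.5% in paired cells. The Tomato- set had 193.2 CPM, near side B. Maoa, a monoamine oxidase, was at -0.28, the uptake transporter Slc29a4 at -0.46 and the receptor Htr1b at 0.11. Tph2, which makes serotonin in neurons, had 5.20 and 1.15 CPM, and Tph1 0 and 1.88 CPM. Ddc, the next enzyme of that pathway, had 1.096 and 1.07 CPM. All 3 were below the filter.

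Among retinoid genes, Crabp1, which encodes a retinoic acid binding protein, had 817.3 to 4899 CPM in the title numbers of side A (median 1259) and 128.6 to 1405 CPM in those of side B (median 362.5). The ranges overlap and 8 of 10 title numbers were higher on side A. Over all cells Crabp1 had 2151 CPM (2136 to 2167) against 658.6 CPM (650.6 to 666.7), a log2 ratio of 1.69 about as large as its SD of 1.66. It was 1.39 without title number 7 and 2.00 without title number 1. At least 5 counts were found in 81.4% (73.1 to 87.9) and 49.4% (41.3 to 57.4) of cells, while 1 count or more was found in 92.4% and 87.3%. The shares with at least 5 were 75.9% and 40.9% after thinning and 81.3% and 51.4% in paired cells, where the log2 ratio was 1.44. Crabp2 was at 0.31, Rxrg at -0.03 and Rara at 0.04, and the list's median was 0.04. Rdh10, a retinol dehydrogenase gene outside the list, was chosen after its values were seen. It had 102.5 against 43.6 CPM (1.07) and was higher in 10 of 10 title numbers, and 54.2% and 18.4% of cells had 5 or more counts.

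The other 8 of the 12 highest ranked genes belonged to varied groups. Lgi2, which encodes a secreted protein of neurons, had 88.02 against 30.4 CPM (1.28, SD 0.94) and at least 5 counts in 42.4% against 15.8% of cells, with 4.48% in the Tomato- set. Chrdl1, which encodes an antagonist of bone morphogenetic proteins, had 26.8 against 1.88 CPM (1.63, SD 0.82), and 20.3% against 2.53% of cells. It passed the filter through side A alone, and its ratio was 3.27 with 1 CPM added and 0.57 with 50 CPM. Gng8, a G protein gamma subunit gene, had 80.97 against 21.9 CPM (1.51, SD 1.73). Fign, which encodes a microtubule-severing ATPase, had 124.6 against 49.4 CPM (1.18, SD 0.66), while the mean of per-cell levels gave a log2 ratio of 0.59. Cep63, a centrosomal gene that overlaps Anapc13 on the opposite strand, was at 1.26, Dapl1 at 1.16, Mthfsd at 1.14 and Rnf24 at 1.12. Dapl1 was at 0.94 without title number 3 and Rnf24 at 0.98 without title number 4.

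Of the 12 lowest ranked genes, 8 were at least 2-fold lower on side A. Igf1 and Arhgdig had 392.5 and 196.8 CPM on side B, and the other 10 between 20.8 and 82.8 CPM. On side A, 5 cells held from 33.2% (Arhgdig) to 79.4% (Gabra3) of the counts of each. Wasf2, a regulator of actin assembly, had 5.54 against 29.7 CPM (-1.35, SD 0.62) and was lower in 10 of 10 title numbers, and Coq2, an enzyme gene of ubiquinone synthesis, had 10.4 against 35.03 CPM (-1.14, SD 0.81), also in 10 of 10. Fxyd7, which encodes a regulator of the sodium pump, had 3.12 against 20.8 CPM (-1.23), and 7.63% and 21.5% of cells had 5 or more of its counts. Gabra3, a GABA receptor subunit gene, had 16.6 against 50.7 CPM (-1.19), and 8.47% and 20.9% of cells had 5 or more of its counts. Zeb2, a zinc finger transcription factor gene, had 31.96 against 82.8 CPM (-1.15, SD 0.93). Maneal was at -1.19 and Elovl1, a fatty acid elongase gene, at -1.09. Of the genes at least 2-fold lower, those named here lost that size in some title number left out, except Wasf2 and Fxyd7. Maneal was at -0.98 without title number 2, Gabra3 at -0.99 without title number 10, Zeb2 at -0.92 without title number 3, and Coq2 and Elovl1 at -0.93 and -0.83 without title number 9. Arhgdig, Herc3, Asph and Nkain3 lay between -0.99 and -0.93.

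Eomes, which encodes a T-box transcription factor, was lower in level, with a smaller difference in detection. Its title numbers ran from 1.99 to 295.8 CPM on side A (median 112.2) and from 82.8 to 512.8 CPM on side B (median 307.2), overlapping, with 9 of 10 lower on side A. Over all cells Eomes had 124.8 CPM (121.2 to 128.5) against 280.7 CPM (275.4 to 285.9), a log2 ratio of -1.11 that is smaller than its SD of 1.89. At least 5 counts were found in 35.6% (26.996 to 44.9) and 37.3% (29.8 to 45.4) of cells, both above the 9.42% (5.92 to 14.03) of the Tomato- set. The shares of the sides were 30.2% and 37.1% after thinning and 34.6% and 38.3% in paired cells. The ratio was -0.83 in cells paired by total, -0.76 without title numbers 8 and 10, and under 2-fold without any of 3 single title numbers, with -0.92 without title number 10. Of the 13 RGC subtype factors past the filter, Eomes alone differed 2-fold (0.9% of all genes tested did) and the median was 0.09. Irx3 was at -0.54, Irx1 at 0.41 and Satb1 at 0.39.

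For adhesion, guidance and channel genes, counts of 2-fold differences with 10 CPM added stand beside 0.9% of all genes tested. Counts of 0 or 1 in lists of this size therefore say little about these families. Of 20 adhesion genes past the filter 1 was 2-fold higher, the cadherin gene Cdh13 (73.3 against 22.4 CPM, 1.37, SD 2.04), and it was higher in 6 of 10 title numbers. Pcdh9, a protocadherin gene, had 110.04 against 205.6 CPM (-0.85) and was lower in every one of the 10 title numbers, with 45.8% and 55.7% of cells at 5 or more counts. Of 15 other guidance receptors and 8 guidance ligands 0 differed 2-fold with 10 CPM added. Slit1, which encodes a Robo ligand, was at 0.94 (28.4 against 9.95 CPM) and the netrin receptor gene Dcc at -0.82 (13.9 against 32.2 CPM). The Hedgehog receptor gene Ptch1 was at -0.67 (7.14 against 17.2 CPM) and the Hedgehog co-receptor gene Cdon at 0.63. Of 15 ion channel genes 0 differed 2-fold by this ratio, with Kcnb2 at -0.91 (29.6 against 64.6 CPM) and Kcna2 at 0.87 (43.2 against 19.2 CPM). Without the added CPM, Slit1, Dcc, Ptch1, Kcnb2 and Kcna2 differed more than 2-fold. Of 20 genes of synaptic vesicles and release 0 differed 2-fold, with a median of -0.12 and Snap25 at -0.43. Among 10 neurotransmitter receptors Gabra3 was the 1 lower gene, and Chrna4, a nicotinic receptor subunit gene, was at -0.82.

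Genes that mark positions in the retina did not differ 2-fold with 10 CPM added. Of all genes tested 0.9% did, so a count of 0 among so few genes says little about position. Of the ventral, dorsal, temporal and nasal lists 3, 2, 3 and 3 genes passed the filter, and the medians were -0.13, -0.16, -0.44 and -0.29. Vax2, a homeobox factor of ventral retina, had 215.99 and 238.6 CPM (-0.14). Foxd1, a forkhead factor of temporal retina, had 10.99 and 3.64 CPM (0.62) and was higher on side A in 8 of 10 title numbers. Without the added CPM its levels differed more than 2-fold, and its log2 ratio ran from 0.19 to 1.37 over the processing alternatives. The temporal median was led by Epha5 and Epha6. Vax1 had 0 counts on both sides.

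**Figure D3:**
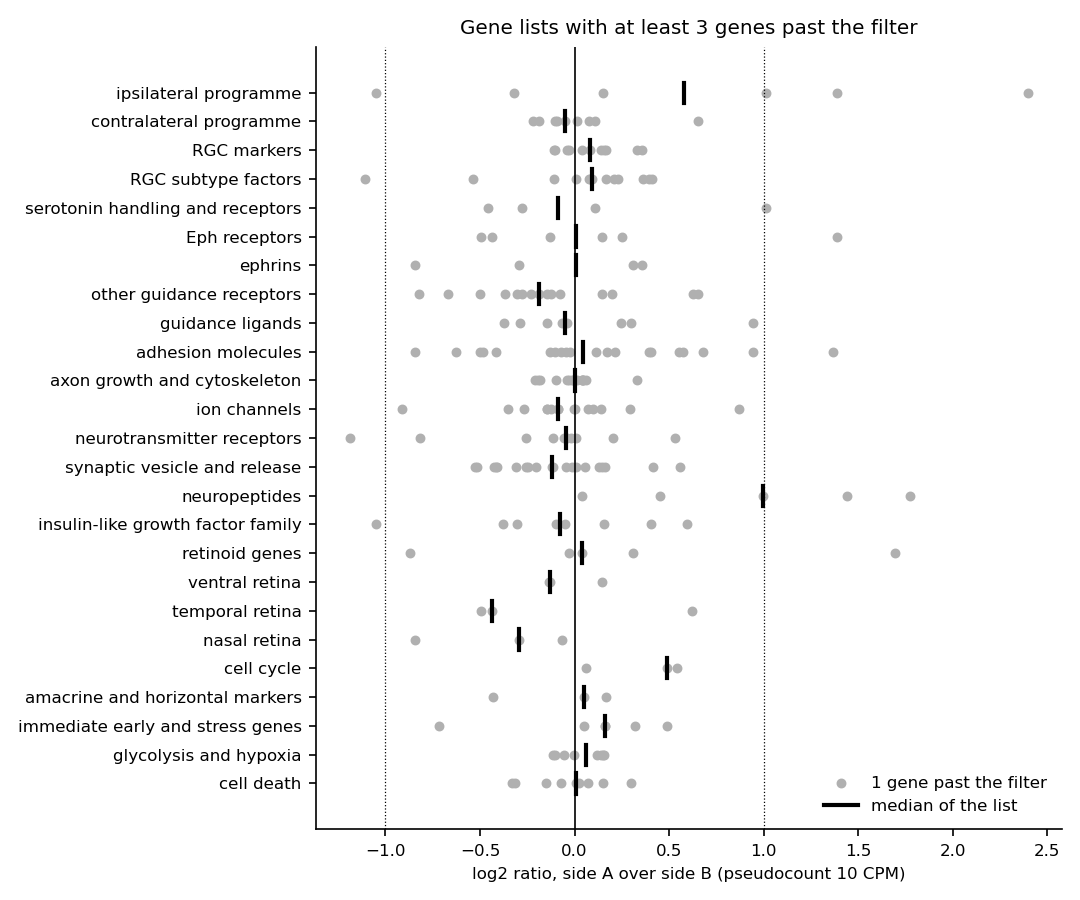
Log2 ratio of side A over side B (x axis, pseudocount 10 CPM) for each gene past the filter (grey points) in lists with at least 3 such genes (rows), with the list's median as a black bar. Medians lie between -0.44 and 0.58 except that of the neuropeptides at 1.00.

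Markers of other cells were found on both sides. In every list of such markers except the endothelial list, the highest sum in a single title number was on side B. The 12 progenitor markers summed to 206.9 CPM on side A (74.5 to 510.0 over title numbers) and 265.5 CPM on side B (129.96 to 925.9), and 3 and 6 cells had at least 3 of them. Cell cycle genes summed to 177.7 and 193.6 CPM (55.9 to 384.9 and 45.1 to 1195). The 3 of them past the filter, Pcna, Mcm6 and Tyms, were all above 0, with a median log2 ratio of 0.49. Neurogenic precursor markers summed to 120.5 and 157.3 CPM (23.5 to 243.5 and 48.95 to 398.3). Photoreceptor markers summed to 95.8 and 184.7 CPM (29.1 to 142.3 and 28.4 to 651.0), with Rcvrn at 0 on both sides. Of these, Neurod1 had 13.6 against 41.4 CPM (-1.13) and was lower on side A in 6 of 10 title numbers, with 75.3% of its side B counts in 5 cells. It was at -0.96 and -0.78 without title numbers 1 and 10. Amacrine and horizontal markers summed to 780.0 and 807.2 CPM, mostly Pax6, which RGCs also express. Microglial markers summed to 3.12 and 12.98 CPM, the latter with up to 346.1 CPM in 1 title number. Endothelial markers summed to 15.6 and 4.84 CPM, with Cdh5 at 0 on both sides, and those of lens and pigment epithelium to 2.00 and 6.70 CPM. Optic stalk or astrocyte markers summed to 10.2 and 44.4 CPM, the latter with up to 372.2 CPM in 1 title number, and Gfap and Vax1 were at 0 on both sides. Immediate early and stress genes had a median log2 ratio of 0.16 and cell death genes of 0.01. In either list 0 genes were at 2-fold, against 0.9% of all genes tested. The part of these cells in the results was not tested. With RGC-marker cells only, the log2 ratios of Ephb1, Zic5, Gal and Igf1 were 1.38, 2.39, 1.76 and -1.06.

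Levels in cells grouped by Slc6a4 counts are given as a description. The same counts chose the sides, and most of these genes are shown because they differed between the sides. The direction from the first to the last group was therefore largely fixed. Side A was split at its median Slc6a4 count into a lower and an upper part of 59 cells each, and the 44 cells with 1 to 4 counts were added. From 0 through 1 to 4 counts to the lower and the upper part of side A, Gal had 650.1, 765.7, 1446 and 2978 CPM, higher at each step. Ephb1 had 78.8, 161.1, 136.3 and 300.3 CPM, and Zic5 15.05, 72.1, 75.9 and 164.3 CPM. Crabp1 had 658.6, 607.3, 1500.1 and 2748 CPM. Slc18a2 had 203.3, 363.7, 333.3 and 499.97 CPM and Tac1 29.7, 83.2, 70.3 and 123.4 CPM, not higher at each step. Pcsk2 (37.96, 107.9, 64.5 and 114.4 CPM) and Zic1 (8.30, 8.77, 35.8 and 18.7 CPM) were not either. Lgi2 and Sst were higher at each step. Eomes had 280.7, 274.7, 207.5 and 49.1 CPM and Igf1 392.5, 309.3, 291.2 and 86.4 CPM, so that most of their difference lay in the upper part of side A. Pou4f1 showed no such order, with 133.3, 155.4, 105.7 and 119.8 CPM. The share of cells with at least 5 Zic5 counts was 12.0%, 27.3%, 37.3% and 66.1%, and that of Eomes 37.3%, 36.4%, 47.5% and 23.7%. Median totals of these cells were 272082, 259195, 270263 and 294898 counts.

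**Figure D4:**
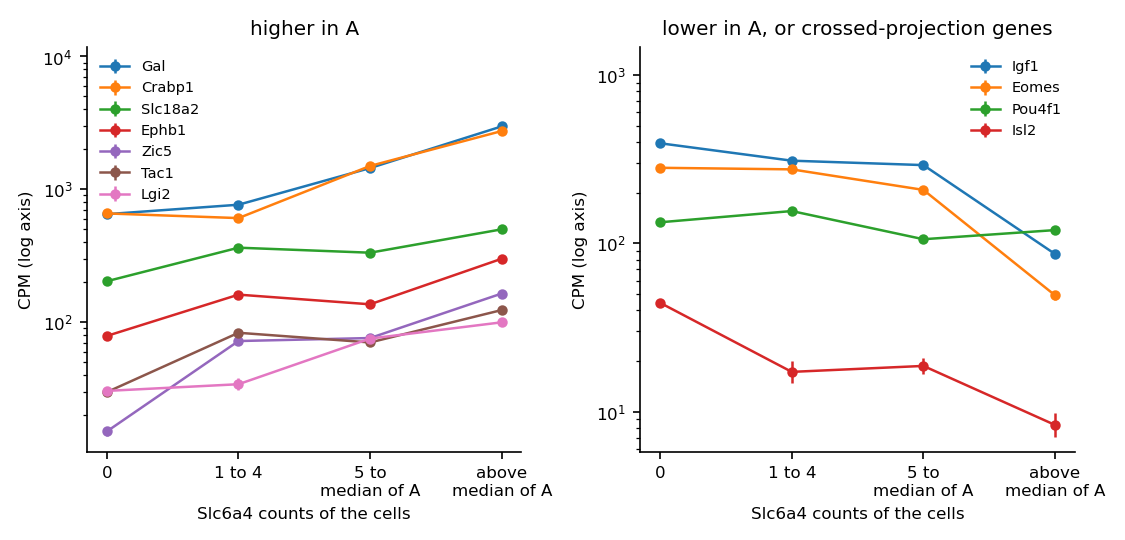
Levels in CPM (y axes, log scale) in Tomato+ cells with 0, 1 to 4, 5 up to the side A median, and more than the side A median of Slc6a4 counts (x axis), with exact 95% Poisson intervals for counting error. Gal reached 2978 CPM and Ephb1 300.3 CPM in the last set, where Igf1 had 86.4 and Eomes 49.1 CPM.

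The number of higher genes found in each cell was counted as a description. For Ephb1, Zic5, Gal, Tac1 and Crabp1, a set chosen because its genes were higher on side A, which fixes the direction between the sides, at least 3 had 5 or more counts in 80.5% of side A cells, 29.7% of side B cells and 6.73% of the Tomato- set. All 5 were found in 18 side A cells (15.3%), 4 side B cells (2.53%) and 0 cells of the Tomato- set. None of the 5 was found in 2 side A cells and 12 side B cells. Members of the set can share a cell because each is frequent, so the pairs are given as well. On side A, Zic5 was found in 61.8% of the 89 cells with Ephb1 and in 20.7% of the 29 without. On side B it was found in 13.6% of 66 and 10.9% of 92 cells. Tac1 was found with and without Ephb1 in 40.4% and 41.4% of side A cells and in 16.7% and 18.5% of side B cells. Sst was found with Crabp1 in 39.6% of 96 side A cells and without it in 9.09% of 22. The shares on side B were 25.6% of 78 and 7.5% of 80 cells.

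**Figure D5:**
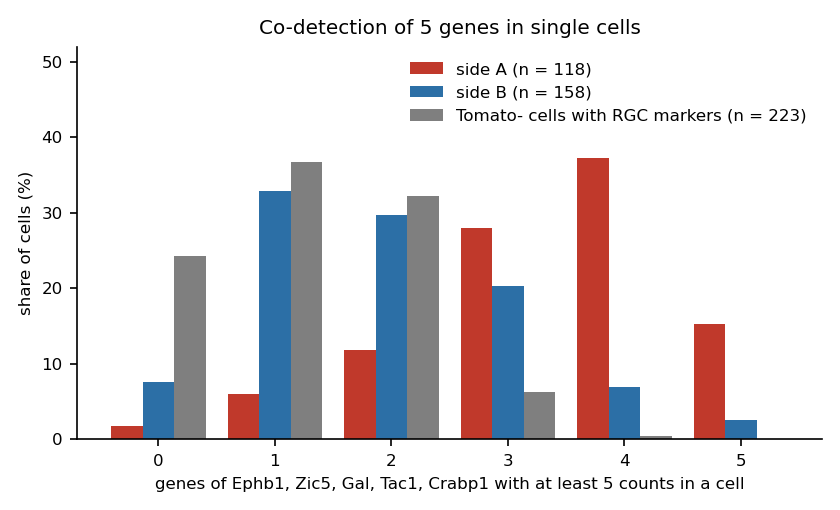
Share of cells in percent (y axis) by how many of Ephb1, Zic5, Gal, Tac1 and Crabp1 had at least 5 counts (x axis), for side A, side B and Tomato- cells with RGC markers. The most frequent number was 4 on side A (37.3% of cells) and 1 on side B (32.9%) and in the Tomato- set (36.8%).

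Igf1 and Eomes were often found in the same cells on both sides, and their shares in cells with and without Zic5 are given beside this. Eomes was found in 67.4% of the 43 side A cells with Igf1 and in 17.3% of the 75 without, and on side B in 58.3% of 84 and 13.5% of 74. On side A Igf1 was found in 24.6% of the 61 cells with Zic5 and in 49.1% of the 57 without. On side B the shares were 36.8% of 19 cells with and 55.4% of the cells without Zic5. Eomes was found in 24.6% of side A cells with Zic5 and 47.4% of those without, and in 36.8% and 37.4% on side B. Isl2 was found in 0 of the 51 side A cells without Pou4f1 and in 13.4% of the 67 with it. The shares on side B were 2.41% of 83 and 21.3% of 75 cells. Since Eomes marked cells on both sides, the sides were also compared within cells under 5 Eomes counts (76 and 99) and within cells with at least 5 (42 and 59), a split chosen after the data were seen. The log2 ratio of Gal was 1.40 in the first and 2.77 in the second, that of Zic5 2.52 and 1.93, and that of Crabp1 1.62 and 1.83. Ephb1 was at 1.68 and 0.61, Tac1 at 1.93 and 0.55 and Pcsk2 at 1.51 and 0.22. Whether these ratios differ between the strata was not tested. Igf1 was at -0.86 and -1.02, and Pou4f1 at -0.45 and 0.40. Igf1, Eomes and Slc18a2 each overlap an annotated antisense gene, whose counts cannot be told apart from theirs without the strand.

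Side B was not the same as the Tomato- set. Slc6a4-silent labelled cells had 392.5 CPM of Igf1, 280.7 of Eomes and 78.8 of Ephb1, against 80.7, 40.8 and 22.7 CPM in Tomato- cells with RGC markers. Their levels of Lgi2 (30.4 against 5.84 CPM), Tac1 (29.7 against 9.53 CPM) and Crabp1 (658.6 against 322.8 CPM) were also higher. Zic5 (15.05 against 26.4 CPM), Gal (650.1 against 788.8 CPM) and Slc18a2 (203.3 against 193.2 CPM) were near the Tomato- level or under it. Shares of cells with at least 5 counts were higher on side B for Gal (72.8% against 56.5%) and Slc18a2 (75.9% against 54.7%). For Zic5 they were 12.0% and 14.3%. Pou4f1 (133.3 against 174.2 CPM) and Igfbp5 (35.4 against 118.6 CPM) were lower on side B. The Tomato- set had a median total of 269523 counts and comes from other title numbers, so label and title number cannot be told apart in this comparison. Its cells had a median of 9 RGC markers and 4029 detected genes, against 11 and 4569 on side B. They were not chosen by Slc6a4 and held up to 18 of its counts. The part of these features in the differences was not tested.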

How the data were processed

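The authors deposited 1 table of whole-number counts, with genes in rows and cells in columns. Its column names end in "umi" while the labels name SmartSeq2. It is not given in the sources used here whether molecules or reads were counted, and the nonzero counts had a median of 16. Per the submitters' processing notes Seurat 2.3 and R 3.4.4 were used with genome build mm10, and the aligner is not given in the sources used here. The table holds 49585 genes and 801 columns, of which 1 was left aside because its name fits no sample. Repeated symbols (93) counted toward totals only, no 2 cells had identical columns (0 found), and 2 genes of the lists are not reported here.

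Members, gene lists and the naming rule were chosen with earlier results of these data known, and the Eomes strata and some co-detected genes after seeing these values. Counts were summed per side and scaled to CPM with Python 3.11.15, numpy 2.4.6, pandas 2.3.3 and scipy 1.17.1. Named genes are all members of the ipsilateral and contralateral lists. To these were added the 12 highest and 12 lowest ratios among genes with the same sign in at least 8 of 10 title numbers. These genes also had a share of cells with at least 1 count, after thinning, that differed by at least 10 points in that direction. Predicted genes, repeated symbols, pseudogenes and small RNA genes were passed over. So were mitochondrially encoded, ribosomal RNA and haemoglobin genes, Xist, Tsix and the Y-linked Ddx3y, Uty, Eif2s3y and Kdm5d. Of the other lists up to 4 members with the largest ratios are named, and any Eph, ephrin, serotonin or RGC marker gene. Scaling alternatives used edgeR 4.0.16 and DESeq2 1.42.0 in R 4.3.3. The code for ratios and counts of genes was run on simulated data with planted changes larger than 2-fold. This does not measure errors near the 2-fold limit. No animal is named per cell, so the spread between title numbers is that of 1 sample and may be technical.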

Additional observations from a re-analysis of the deposited data

How the results depend on the processing

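The shares of genes tested that were at least 2-fold higher (0.469%) and lower (0.431%) on side A, and of those with the same sign in at least 8 of 10 title numbers (0.38% and 0.304%), depend on the processing. In that order they were 1.80%, 2.35%, 0.989% and 1.22% with a pseudocount of 1 CPM, and 0.0507%, 0%, 0.0507% and 0% with 50 CPM. With cells weighted equally 1.67% of genes were lower, 0.735% in at least 8 title numbers. In cells paired by total 0.702% were higher and 0.640% lower. With side A taken from at least 10 Slc6a4 counts, 0.514% were lower in at least 8 title numbers. From at least 1 count, 0.127% were lower, and 0.241% higher and 0.0887% lower in at least 8. Without title numbers 8 and 10, 0.720% were lower, 0.518% in at least 7 of the 8 that remained. Without single title numbers the 4 shares ran from 0.443% to 0.597%, 0.430% to 0.750%, 0.255% to 0.379% and 0.215% to 0.344%. Without the filter on low counts 82 and 74 genes, 0.390% and 0.352% of a larger number tested, were 2-fold higher and lower. In cells under 5 Eomes counts the 4 shares were 1.38%, 1.30%, 0.768% and 0.729%, and with at least 5 Eomes counts 2.41%, 3.404%, 0.646% and 0.820%, where fewer cells were summed and the last 2 shares need the same sign in at least 7 of 8 title numbers. The 30 and 24 genes 2-fold higher and lower in at least 8 title numbers were chosen by sign and size in these same cells. Their sign could therefore hardly change. In cells under 5 Eomes counts 29 and 23 kept it, and all did under the other alternatives. All stayed 2-fold with 1 CPM added, but 4 and 0 did with 50 CPM. With side A from at least 1 Slc6a4 count 19 and 6 did, and without title numbers 8 and 10, 23 and 16. After thinning 26 and 20 did, and in cells paired by total 25 and 17. Eomes itself was at 0.023 in cells under 5 Eomes counts, by the choice of cells. Scaling by TMM or median of ratios shifted log2 ratios by 0.018 and 0.015. No paired analysis was possible because the labels pair no animals or samples across the sides, which are cells of 1 sample, and ratios within title numbers or in cells paired by total carry no test. Zic2, Isl2 and Boc did not pass the filter, which asks for 5 counts in 10% of cells.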
